A study of Drosophila melanogaster with 16 samples.

Results

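The H/ACA small nucleolar RNAs (snoRNAs) of *Drosophila melanogaster* were examined in a whole-fly RNA sequencing experiment on deletions of the long noncoding RNA gene *Uhg4*. They were taken by name, as the genes whose FlyBase symbol starts with snoRNA:Psi or holds aca after snoRNA:, with at least 20 reads in total over the 16 libraries. The name rule matched 111 rows and the read minimum kept 109 of the 17490 genes in the table. Of these, 46 are named for positions in 18S ribosomal RNA (symbols with Psi18S), 60 for positions in 28S ribosomal RNA (Psi28S) and 3 are orphans without an assigned target (*snoRNA:Or-aca1*, *snoRNA:Or-aca3* and *snoRNA:Or-aca5*). The member just inside the minimum was *snoRNA:Psi18S-640c* with 22 reads, and both genes left out, *snoRNA:Or-aca2* and *snoRNA:Or-aca4*, had 0 reads. Only 2 of the 109, *snoRNA:Psi28S-2949* and *snoRNA:Or-aca5*, lie inside *Uhg4*.

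H/ACA snoRNAs fold into hairpins that pair with a target RNA and position a uridine for conversion to pseudouridine. The enzyme is Nop60B, the fly dyskerin, which works in a particle with NHP2, Nop10 and Gar1. Most targets are ribosomal RNA, and in flies most of these guides are cut out of introns of host genes, many of which encode ribosomal proteins, while the Uhg genes are noncoding hosts whose exons have no known protein product. Orphan members have no assigned ribosomal RNA target.

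The deletion lines *208-ΔA*, *208-ΔF* and *208-ΔG* carry deletions that remove exon 1 of *Uhg4* together with its promoter region. DGRP_208, the inbred line in which the deletions were made, served as the control. Males and females of each line were sequenced separately from 30 whole flies per sample, aged 3 to 5 days, with 2 libraries per sex and line. The deletion stocks were kept over a balancer chromosome and each line is a separate deletion, so that a difference between lines cannot be told apart from other changes carried by a stock. The methods call both libraries of a group biological replicates, and the p-values measure the spread between these libraries. RNA came from whole bodies, in which fewer cells of a type and less RNA per cell cannot be told apart. The table counts reads per annotated gene, and reads from a mature snoRNA and from the unspliced intron around it cannot be told apart in it either.

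Libraries held between 13902521 and 51954693 counted reads, of which H/ACA snoRNAs outside *Uhg4* took 0.0559% to 0.279%. As a measure of the level of genes that are silent in most cells, the median level of chemoreceptor genes ran between 0.350 and 5.81 RPKM (reads scaled to gene length and library total), with the 4 *208-ΔG* libraries at 2.86 to 5.81 RPKM and both DGRP_208 males at 0.601 and 3.37 RPKM. In *208-ΔA* male replicate 2 follicle cell transcripts summed to 215 CPM (counts scaled to library size with the TMM factors of edgeR), against at most 100.3 CPM in the other males. In *208-ΔF* female replicate 2 transcripts of the male accessory gland summed to 64.7 CPM, while the other females did not exceed 8.98 CPM. These libraries were kept. Counts of calls for the deletion lines, in each sex and averaged, and for males against females are also given without both. So are the medians in each sex and for males against females, and the ratios of the sexes in *208-ΔA* and *208-ΔF* are given without their own. Other comparisons, such as the difference of the deletion effect between the sexes, were not fitted without both.

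Of the 109 members, 104 lie in introns of 27 genes on the same strand (dm6 annotation), and none overlaps an exon of its host. Ribosomal protein genes hosted 43 members, in 14 genes. The 5 without a host on their strand were *snoRNA:Psi28S-2622* (which lies opposite *stet*), *snoRNA:Psi28S-3342*, *snoRNA:Psi28S-1153*, *snoRNA:Psi18S-301* and *snoRNA:Psi18S-176*. Annotated lengths ran between 124 and 268 bases with a median of 140. Members were spread over 5 chromosome arms, with 28 on 3R, 26 on 2R, 21 on X, 20 on 2L and 14 on 3L. A letter for a repeated copy ended 74 of the symbols, and since only reads aligned to a single place were counted, values of members with near-identical copies are uncertain.

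Levels of the members, as the mean over all libraries in CPM per kilobase of annotated length, spanned 3890-fold. The highest was *snoRNA:Psi18S-1377d* in the ribosomal protein gene *RpS7* (3R, 30207156 to 30207291, minus strand), with 1426 CPM per kilobase. Next came *snoRNA:Psi28S-291* in *RpL3* (3R, 11223571 to 11223790, plus strand) with 762 and *snoRNA:Psi18S-1820* with 761 CPM per kilobase. *snoRNA:Psi18S-1820* lies in an intron of *Nop60B*, the gene of the pseudouridine synthase itself (2R, 24176228 to 24176367, plus strand). The remainder of the highest 10 were *snoRNA:Psi28S-1175c* (560 CPM per kilobase), *snoRNA:Psi28S-2648* (487), *snoRNA:Psi28S-1192a* (458), *snoRNA:Psi28S-2442b* (414), *snoRNA:Psi28S-2622* (377), *snoRNA:Psi28S-3342* (326) and *snoRNA:Psi28S-1060* (254). Together these 10 took between 63.0% and 68.1% of the H/ACA reads in every library.

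The lowest 5 all lie in the *Arpc2* array and had mean levels of 0.367 (*snoRNA:Psi18S-640c*), 0.591 (*snoRNA:Psi18S-525i*), 0.619 (*snoRNA:Psi18S-640a*), 0.674 (*snoRNA:Psi18S-525f*) and 0.707 CPM per kilobase (*snoRNA:Psi18S-640f*). Per library, 2 to 44 members lay below the median chemoreceptor level per kilobase of that library, and 24 to 84 lay at more than 10 times it. Members in ribosomal protein genes had a median of 48.9 CPM per kilobase (n = 43 members), those in other genes 6.57 (n = 59) and the 5 without a host 180 CPM per kilobase.

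Guides were often arranged in arrays. At least 3 members shared a host in 12 genes, which together held 86 members, and in 6 of the 12 the highest member held over 50% of the array's reads. The largest array lies in *Arpc2*, which encodes an actin nucleation subunit (2L, 20418348 to 20422063, plus strand), and holds 17 members. *RpS5a* holds 14 (X, 17143934 to 17146759, minus strand), *dom*, a chromatin remodeller gene, 12 (2R, 21326739 to 21334299, plus strand), *kra* 8 (3R, 5596201 to 5598777, minus strand), and *Hrb98DE* and *RpS7* 7 each. In *kra*, *snoRNA:Psi28S-2442b* stood at 414 CPM per kilobase and the next member, *snoRNA:Psi28S-3571*, at 29.9, and the first held 80.0% of the array's reads. In *RpS5a* the highest member, *snoRNA:Psi28S-1192a*, exceeded the lowest, *snoRNA:Psi28S-1135e*, by 388-fold per kilobase, and in *RpS7* *snoRNA:Psi18S-1377d* exceeded *snoRNA:Psi28S-2149* by 157-fold. For scale, the sum over all members outside *Uhg4* spanned 6.33-fold over the libraries.

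The member with the highest mean led its array in 16 of 16 libraries in 6 of the 12 arrays, in 15 libraries in 3 arrays (*dom*, *RpS4* and *pAbp*), in 13 in *CG10576*, in 11 in *Sf3b3* and in 10 in *Arpc2*. *snoRNA:Psi18S-1377d* was the highest member of its array in 16 of 16 libraries, with 65.6% to 72.6% of the *RpS7* array's reads. *snoRNA:Psi28S-2442b* was highest in 16 of 16 with 70.4% to 89.1%, *snoRNA:Psi28S-1060* in *RpL17* in 16 of 16 with 69.9% to 84.9%, and *snoRNA:Psi28S-1192a* in 16 of 16 with 41.3% to 54.5%. In *Arpc2*, *snoRNA:Psi18S-640e* took between 6.52% and 69.3% of its reads.

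**Figure D1:**
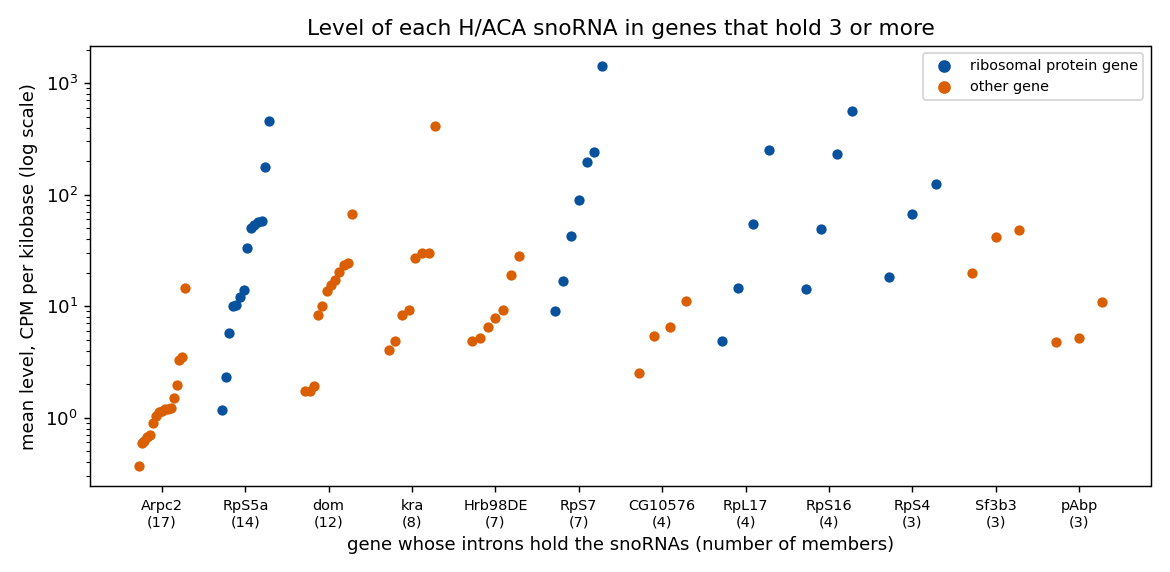
Mean level of each H/ACA snoRNA in the arrays that hold at least 3 members, in CPM per kilobase on a log axis, with 1 point per member and arrays ordered by size. In *RpS7*, *kra* and *RpL17* a single member stands well above the others, while the 17 members of *Arpc2* lie between 0.367 and 14.5 CPM per kilobase.

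Whether loss of the *Uhg4* promoter and exon 1 reached the guides inside the gene was asked first. Both were lower in deletion females, and *snoRNA:Or-aca5* was lower in deletion males too. *snoRNA:Or-aca5* (2R, 9095685 to 9095832, plus strand) had 1 and 10 reads in *208-ΔA* females, 4 and 3 in *208-ΔF* females and 30 and 5 in *208-ΔG* females, against 5185 and 1951 reads in DGRP_208 females. In males it had 7 and 18 reads in *208-ΔA*, 1 and 8 in *208-ΔF* and 5 and 2 in *208-ΔG*, against 1259 and 716 reads in DGRP_208. Scaled to library size this was 0.0430 to 0.430 CPM in deletion males, against 36.0 and 21.1 CPM in DGRP_208 males, and 0.0631 to 1.46 CPM in deletion females, against 125 and 108 CPM in DGRP_208 females. No deletion library overlapped a DGRP_208 library of its sex.

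The log2 fold change of *snoRNA:Or-aca5* was -8.85 in females (SE, its standard error, 0.740, adjusted p = 0.00227) and -7.31 in males (SE 0.717, adjusted p = 0.00557), from edgeR's quasi-likelihood test with Benjamini-Hochberg adjustment over 16212 genes. With the libraries of 1 sex alone the adjusted p by edgeR was 0.0916 in females and 0.0435 in males. Line by line, with the sexes averaged, it was -7.75 in *208-ΔA*, -8.63 in *208-ΔF* and -7.85 in *208-ΔG* (adjusted p = 0.00330, 0.00231 and 0.00973 by edgeR), and without either *208-ΔG* male the last was 0.0968 or 0.0935. The difference of the effect between males and females was 1.54 (SE 1.10, adjusted p = 1.00 by edgeR). A linear model on Ge-TMM values without a log called a difference, with an adjusted p of 0.000451. That model compares differences of levels and not log2 ratios, and DGRP_208 means were 116 CPM in females and 28.6 CPM in males. Without both libraries that held transcripts of the other sex, the adjusted p in males was 0.0513. In DGRP_208 this orphan ranked 7th and 7th of 109 members by level per kilobase in females and 8th and 6th in males, and in deletion libraries its rank lay between 46th and 106th.

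*snoRNA:Psi28S-2949*, a guide named for a 28S position (2R, 9095372 to 9095526, plus strand), starts 5′ of *snoRNA:Or-aca5* in the same gene and was far less abundant. In DGRP_208 females it stood at 18.1 and 14.2 CPM per kilobase, where *snoRNA:Or-aca5* stood at 845 and 727. It had 1 and 5 reads in *208-ΔA* females, 3 and 1 in *208-ΔF* females and 1 and 0 in *208-ΔG* females, against 116 and 40 reads in DGRP_208 females. A count of 0 in that library allows up to 3 reads, or 0.0711 CPM, for counting error only. All deletion females lay below both DGRP_208 females, with a log2 fold change of -5.54 (SE 0.709, adjusted p = 0.0171 by edgeR). The adjusted p exceeded 0.05 when any of 5 female libraries was left out (*208-ΔA* replicates 1 and 2, *208-ΔG* replicate 2 and DGRP_208 replicates 1 and 2), with values between 0.0617 and 0.155, and it was 0.145 with the female libraries alone, 0.115 without the *208-ΔG* libraries and 0.0622 without both libraries that held transcripts of the other sex.

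In males the same guide was near the limit of detection. It had 2 and 0 reads in *208-ΔA*, 2 and 2 in *208-ΔF* and 1 and 5 in *208-ΔG* males, against 11 and 3 reads in DGRP_208 males. The highest deletion male, at 0.118 CPM, exceeded the lower DGRP_208 male, at 0.0886 CPM. The log2 fold change was -1.80 (SE 0.821, adjusted p = 0.999 by edgeR), and a difference was not detectable at this depth. The difference of the effect between males and females was 3.74 (SE 1.23, adjusted p = 1.00 by edgeR). By a linear model on Ge-TMM values without a log, which compares differences of levels and not log2 ratios, the adjusted p was 0.000752. Means in DGRP_208 were 2.50 CPM in females and 0.202 CPM in males. The host transcript had log2 fold changes of -3.87 in females (adjusted p = 0.00473 by edgeR) and -1.40 in males.

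**Figure D2:**
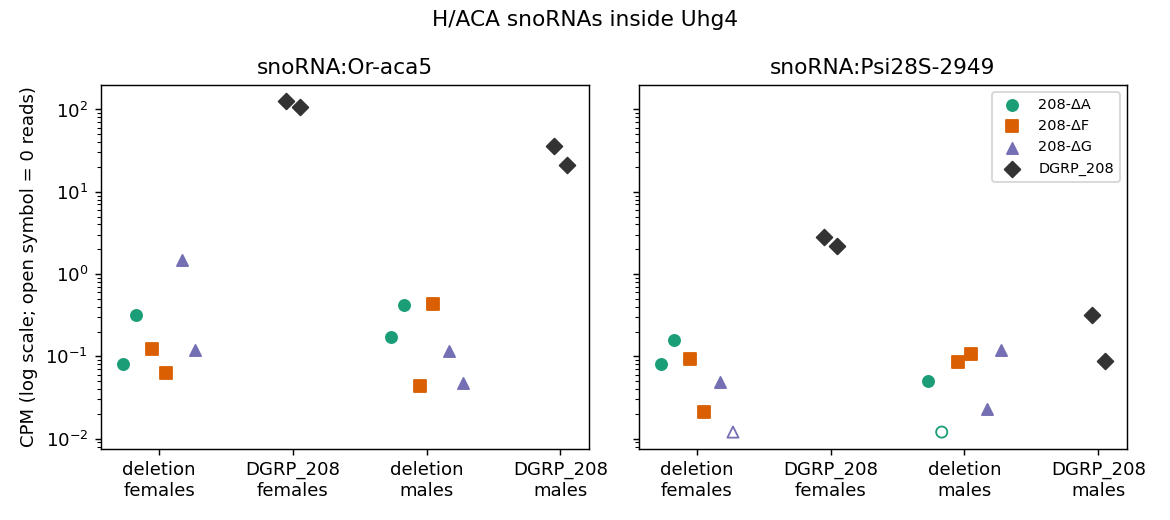
Level of *snoRNA:Or-aca5* and *snoRNA:Psi28S-2949* in each library, in CPM on a log axis, with deletion lines left of DGRP_208 in each sex and the lines as symbols. Each symbol is 1 library, open where it had 0 reads and then drawn at the bottom. Deletion libraries of *snoRNA:Or-aca5* reach at most 1.46 CPM while DGRP_208 libraries lie at 21.1 CPM or above, and male libraries of *snoRNA:Psi28S-2949* overlap.

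Outside *Uhg4*, 104 members had a median count of at least 2 and were tested, and the 3 that were not are *snoRNA:Psi18S-640c*, *snoRNA:Psi18S-525f* and *snoRNA:Psi18S-640g*. In females none of the 104 passed an adjusted p of 0.05 by edgeR, where 0.13% of all genes tested did. Over all 106 tested members, the pair inside *Uhg4* included, DESeq2 and limma-voom called 2 and a linear model on Ge-TMM values called 3. Most of the 104 nonetheless had lower values in deletion females. The log2 fold change was negative for 96 of 104, with a median of -0.77, against -0.01 over all genes tested, and the members' median was -0.64 without both libraries that held transcripts of the other sex. At an unadjusted p under 0.05 there were 35 members, all lower (33.7% of the 104), while 2.76% of all genes were lower by that rule. These members are not independent observations, since all were measured against the same 2 DGRP_208 females. Summed over members outside *Uhg4*, *208-ΔF* female replicate 1 nearly reached DGRP_208 female replicate 2, at 2383 against 2391 CPM. The median member stood at 23.3 and 23.6 CPM per kilobase in these libraries. The other deletion females summed to 809 to 2116 CPM, and DGRP_208 female replicate 1 to 2715 CPM.

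In 30 of the 104, every deletion female lay below both DGRP_208 females, against 2.92% of all genes tested. The count was 30 without *208-ΔF* female replicate 2 (background 3.12%) and 31 without the *208-ΔG* libraries (background 4.92%). *snoRNA:Psi28S-1153*, which has no host on its strand, was the single member with every deletion female above both controls (1.61% of all genes were). This guide was near the limit of detection, with 68 reads in total over all libraries and a mean of 0.0517 CPM in DGRP_208 females.

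The smallest p among them belonged to *snoRNA:Psi18S-1347b*, one of 3 guides in the gene of the poly(A)-binding protein *pAbp*, with a log2 fold change of -1.34 (SE 0.293, adjusted p = 0.241 by edgeR). *snoRNA:Psi28S-3378*, the highest member of the *dom* array, was next. It had 5.02 to 16.3 CPM in deletion females (median 7.10), against 28.2 and 23.7 CPM in DGRP_208 females, with a log2 fold change of -1.55 (SE 0.382, adjusted p = 0.404 by edgeR). The groups did not overlap, as was the case for *snoRNA:Psi28S-2648* in *RpL36A*, which had 42.5 to 117 CPM in deletion females (median 64.4), against 191 and 160 CPM in DGRP_208 females. Among the arrays *snoRNA:Psi18S-1377d* overlapped, with 131 to 360 CPM in deletion females (median 197), against 394 and 352 CPM in DGRP_208 females. The tested members had a median log2 fold change of -0.90 in ribosomal protein genes and -0.74 in other genes.

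The libraries also differed in other transcripts. Follicle cell markers, 9 of 9 measured, summed to 381 to 2366 CPM in deletion females, against 1559 and 4169 CPM in DGRP_208 females, and germ line markers to 578 to 2692 CPM, against 1268 and 1726 CPM. Their part in the lower guide levels was not tested.

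In males, none of the 104 was called by edgeR, where 0.0617% of all genes were. DESeq2, limma-voom and a linear model on Ge-TMM values each called 1 of the 106 tested members, *snoRNA:Or-aca5*. Log2 fold changes were positive for 82 of 104, with a median of 0.36, against -0.05 over all genes. The median depended on which DGRP_208 male was kept, and was -0.06 without replicate 2 and 1.02 without replicate 1. It was 0.24 without both libraries that held transcripts of the other sex. At an unadjusted p under 0.05 there were 4 higher and 1 lower members (3.85% and 0.962%, against 1.84% and 1.1% of all genes). No member had every deletion male below both DGRP_208 males (1.54% of all genes did), and *snoRNA:Psi18S-525b* in *Arpc2* had every one above (2.76% of all genes did). That guide was near the limit of detection, with 87 reads in total over all libraries and a mean of 0.0434 CPM in DGRP_208 males.

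The members with the smallest p in males were *snoRNA:Psi28S-3327c* in *RpS4* and *snoRNA:Psi28S-1175c* in *RpS16*. *snoRNA:Psi28S-3327c* had 0.756 to 3.49 CPM in deletion males (median 1.34), against 0.773 and 0.413 CPM in DGRP_208 males, with a log2 fold change of 1.33 (SE 0.500, adjusted p = 0.999 by edgeR). *snoRNA:Psi28S-1175c* had 27.2 to 140 CPM in deletion males (median 47.3), against 31.6 and 11.8 CPM in DGRP_208 males. In both, values overlapped between the groups.

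Set directly against each other, the deletion effect was more positive in males than in females by a median of 1.15 on the log2 scale over the 104 members, against -0.02 over all genes. By edgeR no member and no gene (0.0%) was called for this difference, which was not fitted without both libraries that held transcripts of the other sex. A linear model on Ge-TMM values without a log called 3 of the 106 tested members, both inside *Uhg4* among them. That model compares differences of levels and not log2 ratios. At an unadjusted p under 0.05 there were 33 members, all with the more positive effect in males (31.7% of the 104, against 1.84% of all genes). The smallest p was that of *snoRNA:Psi28S-2648*, with a difference of 1.98 (SE 0.483, adjusted p = 1.00 by edgeR). It had 27.2 to 126 CPM in deletion males (median 55.6), against 46.3 and 22.7 CPM in DGRP_208 males, beside the female values above. *snoRNA:Psi28S-2566* followed with 1.76. For the Line by Sex term with 3 degrees of freedom, 23 members had an unadjusted p under 0.05 (22.1% of the 104, against 4.54% of all genes) and none, of members or of all genes (0.0%), an adjusted p under 0.05 by edgeR.

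**Figure D3:**
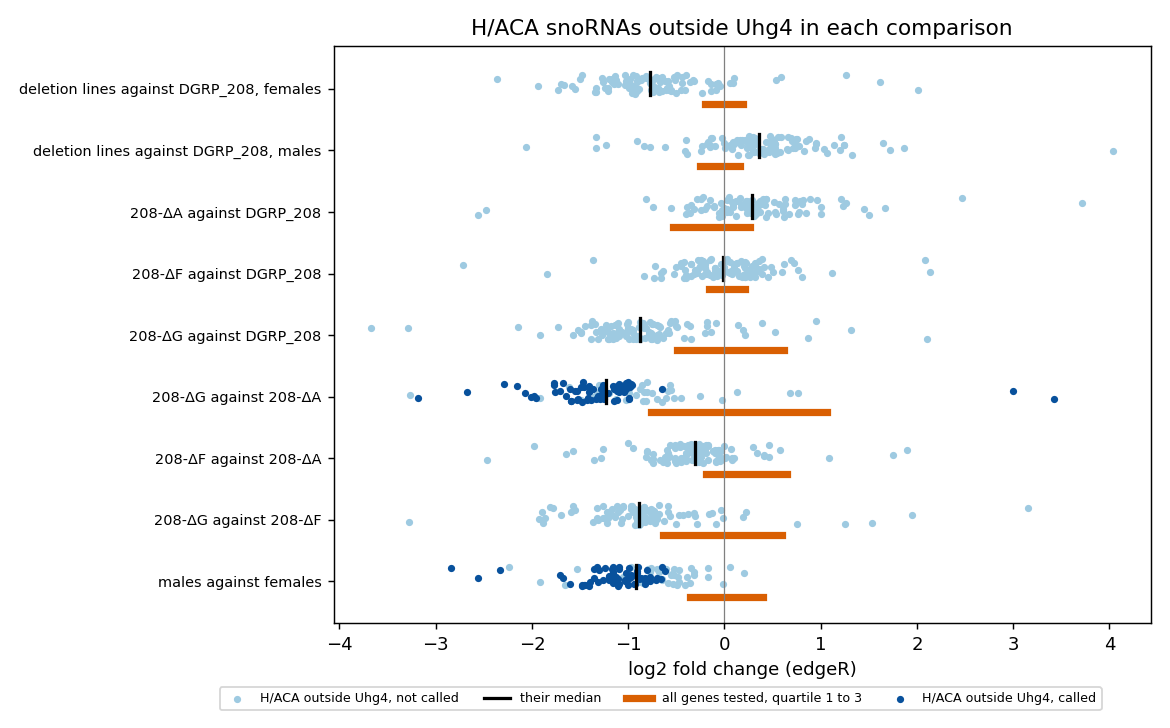
Log2 fold change of each tested H/ACA snoRNA outside *Uhg4* (horizontal, edgeR) in each comparison (rows), with 1 point per member, dark where called at an adjusted p under 0.05, a black line at their median and a bar from the first to the third quartile of all genes tested. Medians are 0.36 in males, -0.77 in females, -1.23 for *208-ΔG* against *208-ΔA* and -0.92 for males against females.

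With the sexes averaged, no member outside *Uhg4* was called by edgeR (0.117% of all genes were) and the median was -0.23, a value that was 0.10 without DGRP_208 male replicate 1 and 0.10 without the *208-ΔG* libraries. *snoRNA:Psi28S-2949* was called here at a log2 fold change of -3.67 (SE 0.556, adjusted p = 0.0372 by edgeR), but its adjusted p was above 0.05 in 12 of 16 fits that left out 1 library (0.0542 to 0.621), 0.103 without the *208-ΔG* libraries and 0.0957 without both libraries that held transcripts of the other sex. For Line with 3 degrees of freedom *snoRNA:Or-aca5* was the only member called, with an adjusted p of 0.00157 by edgeR (0.191% of all genes were called). That count moved with single libraries. By edgeR it was 44 of 106 (41.5%, against 47.8% of all genes) without DGRP_208 male replicate 2, 21 (19.8%, against 42.2%) without DGRP_208 male replicate 1, 20 (18.9%, against 27.1%) without *208-ΔF* female replicate 2 and 9 (8.49%, against 16.2%) without *208-ΔG* female replicate 2. At an unadjusted p under 0.05 there were 43 members outside *Uhg4* (41.3% of the 104), and 50.4% of all genes.

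Against DGRP_208 the median over the 104 members was 0.29 in *208-ΔA*, -0.01 in *208-ΔF* and -0.87 in *208-ΔG*, with the same controls in each. When 1 library was left out it ran between -0.02 and 0.57, between -0.30 and 0.23, and between -1.15 and -0.50, so that its sign held in *208-ΔG* only. None of the 104 passed in any of these by edgeR (0.167%, 0.074% and 0.271% of all genes did). In *208-ΔG*, edgeR called 46 of 106 without DGRP_208 male replicate 2 (43.4%, against 35.4% of all genes), 10 without *208-ΔG* female replicate 2 (9.43%, against 10.5%) and 0 without either *208-ΔG* male. Over the 3 comparisons DESeq2 called 3, 2 and 18 of the 106 tested members, with *snoRNA:Or-aca5* among them each time, and 1.49%, 0.53% and 10.7% of all genes. In *208-ΔG* 48 members had an unadjusted p under 0.05, all lower (46.2% of the 104, against 22.6% of all genes that were lower). Chemoreceptor genes moved the other way in *208-ΔG*, with a median of 1.03 and positive values for 153 of 176 tested. With their level as a covariate, 5 of all genes were higher and 10 lower in *208-ΔG* by edgeR, against 5 and 39 without it.

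Between deletion lines, guides were lower in *208-ΔG* than in *208-ΔA*. Of the 104 members 65 were lower and 2 were higher at an adjusted p under 0.05 by edgeR. That is 64.4% of them, where 57.9% of all genes were called, and the direction differed: 62.5% of the members were lower, against 30.1% of all genes. The median was -1.23, against 0.01 over all genes. *snoRNA:Psi28S-291* had 48.7 to 141 CPM in the *208-ΔG* libraries, against 131 to 285 CPM in the *208-ΔA* libraries, with a log2 fold change of -1.34 (SE 0.269, adjusted p = 0.010 by edgeR). Within each sex its 2 values in *208-ΔG* (141 and 89.0 CPM in females, 64.7 and 48.7 CPM in males) lay below those in *208-ΔA* (285 and 207 CPM in females, 208 and 131 CPM in males). Further members lower at the smallest p were *snoRNA:Psi28S-3316c* (-3.18), *snoRNA:Psi28S-3091a* (-1.71), *snoRNA:Psi28S-2648* (-1.31), *snoRNA:Psi28S-3305a* (-2.16), *snoRNA:Psi18S-1347b* (-1.27), *snoRNA:Psi18S-1854a* (-1.95), *snoRNA:Psi28S-3342* (-1.37) and *snoRNA:Psi28S-3436b* (-1.98).

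The 2 members that were higher both lie in *Arpc2*. *snoRNA:Psi18S-640e* had 4.69 and 2.58 CPM in *208-ΔG* females and 3.99 and 3.31 CPM in *208-ΔG* males, against 0.490 and 0.317 CPM in *208-ΔA* females and 0.149 and 0.422 CPM in *208-ΔA* males, a log2 fold change of 3.43 (SE 0.747, adjusted p = 0.0102 by edgeR). *snoRNA:Psi18S-525e* had 0.308 to 1.12 CPM in *208-ΔG*, against 0.0469 to 0.245 CPM in *208-ΔA*, a log2 fold change of 3.00 (SE 0.621, adjusted p = 0.010 by edgeR). Neither overlapped between the lines. The host *Arpc2* fell by 1.19 on the log2 scale, as did the median of its 14 tested members, at -1.17. These are also the members with the smallest p for *208-ΔF* against *208-ΔA*, where no member was called by edgeR, DESeq2 or limma-voom (0.00617% of all genes were called by edgeR).

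The lines of this contrast also differed in the chemoreceptor level. That level was 2.86 to 5.81 RPKM in *208-ΔG*, against 0.350 to 0.930 RPKM in *208-ΔA*. With it as a covariate no member and no gene was called, and the median of the members was -0.33. Since the ranges do not overlap, this covariate cannot be told apart from the line, and the fit cannot separate them. Scaling by library size only shifted the median of all genes by 0.72 and left 10 members lower and 3 higher (12.3% of 106, against 59.2% of all genes), with the share of higher genes among all calls at 85.0%, against 48.0%. Leaving out *208-ΔA* female replicate 1 left 19 members called (17.9% of 106, against 35.1% of all genes), and leaving out *208-ΔG* female replicate 1, *208-ΔA* male replicate 2 or *208-ΔG* male replicate 2 left 28, 29 or 37 (26.4%, 27.4% and 34.9%, against 35.9%, 44.9% and 43.5% of all genes). Germ line markers moved with the guides, with 5 of 9 lower and none higher by edgeR, a median of -1.01 and sums of 374 to 1448 CPM in *208-ΔG*, against 665 to 2692 CPM in *208-ΔA*. Follicle cell markers had none of 9 called and a median of 0.74. The part of these in the lower guide levels was not tested. Against *208-ΔF*, *208-ΔG* had a median of -0.89 with none called by edgeR (0.0% of all genes) or limma-voom, 27 of 106 called by DESeq2 (25.5%, against 28.6% of all genes), and 48 lower members at an unadjusted p under 0.05 (46.2%, against 28.1% of all genes).

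Males had less of most H/ACA guides than females. Averaged over the 4 lines, 64 of the 104 were lower in males and none was higher at an adjusted p under 0.05 by edgeR. That is 61.5%, where 39.8% of all genes were called and 19.0% were lower. The log2 fold change was negative for 102 of 104, with a median of -0.92, against -0.03 over all genes. The exceptions were *snoRNA:Psi18S-525d* (0.20) and *snoRNA:Psi18S-1275* (0.06), which were not called. Over the 106 tested members the count was 63 without both libraries that held transcripts of the other sex (59.4%, against 37.4% of all genes). It was 39 without the *208-ΔG* libraries (36.8%, against 34.9%) and 37 without *208-ΔG* female replicate 2 (34.9%, against 35.4%). In these fits the share called in either direction was near that of all genes. The share of all genes that were lower in males is not given for them. The median was -1.19 without both libraries that held transcripts of the other sex.

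*snoRNA:Psi18S-1854a* in *RpS5a* had the smallest p, with 0.115 to 2.18 CPM in males (median 0.401), against 1.17 to 4.74 CPM in females (median 3.33), and a log2 fold change of -2.56 (SE 0.321, adjusted p = 6.72e-05 by edgeR). *snoRNA:Psi18S-301*, with no host on its strand, had 0.206 to 1.78 CPM in males (median 0.481), against 1.17 to 4.73 CPM in females (median 2.84), a log2 fold change of -2.33 (adjusted p = 0.000117 by edgeR). Among abundant guides *snoRNA:Psi28S-291* had 48.7 to 208 CPM in males (median 102), against 89.0 to 364 CPM in females (median 238), a log2 fold change of -1.15. The sexes overlapped in each of these, as they did for every one of the 104 members (5.41% of all genes had every male below every female). Without *208-ΔA* male replicate 2, 6 of the 104 did not overlap (6.53% of all genes).

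Others at the smallest p were *snoRNA:Psi28S-3327b* (-1.20), *snoRNA:Psi28S-1135c* (-1.70), *snoRNA:Psi28S-3342* (-1.33), *snoRNA:Psi28S-2179* (-1.48), *snoRNA:Psi28S-3327c* (-1.61), *snoRNA:Psi18S-841a* (-1.46) and *snoRNA:Psi18S-1086* (-1.40). By location, 36 of 43 tested members in ribosomal protein genes were called lower, 24 of 56 in other genes and 4 of 5 without a host, and within other genes *Arpc2* contributed 2 of 14. Calls also followed level, with 32 of the 35 highest members called, 24 of the middle 35 and 8 of the lowest 34, so that the count by host cannot be told apart from the higher levels of members in ribosomal protein genes.

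The sum over the 107 members outside *Uhg4* was taken for each line and sex. It was 1163 and 1972 CPM in *208-ΔA* males, against 2116 and 1094 CPM in *208-ΔA* females. It was 798 and 969 CPM in *208-ΔF* males, against 2383 and 1445 CPM in the females, and 612 and 509 CPM in *208-ΔG* males, against 809 and 1178 CPM in the females. In DGRP_208 it was 867 and 429 CPM in males, against 2715 and 2391 CPM in females. The ratio of the male to the female sum was 0.977 in *208-ΔA*, 0.461 in *208-ΔF*, 0.564 in *208-ΔG* and 0.254 in DGRP_208, and the sexes overlapped in *208-ΔA* only. Without *208-ΔA* male replicate 2 the ratio in that line was 0.725, and without *208-ΔF* female replicate 2 it was 0.371 in *208-ΔF*. No test was made of the difference of these ratios between lines, and the Line by Sex term called no member by edgeR. Libraries of a group differed by up to 2.02-fold.

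Both males lay below both females for 10 of the 104 tested members in *208-ΔA* (30.4% of all genes did), for 79 in *208-ΔF* (22.7%), for 60 in *208-ΔG* (25.1%) and for 91 in DGRP_208 (24.3%). Without *208-ΔA* male replicate 2 the count in *208-ΔA* was 44 (38.7% of all genes), and without *208-ΔF* female replicate 2 it was 92 in *208-ΔF* (35.2%). Germ line markers, of which 9 of 10 listed genes were found, summed to 374 to 877 CPM in males, against 578 to 2692 CPM in females, and follicle cell markers to 11.2 to 215 CPM in males, against 381 to 4169 CPM in females. Testis markers summed to 1090 to 2938 CPM in males, against 217 to 306 CPM in females. The part of the gonads in the sex difference was not tested.

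**Figure D4:**
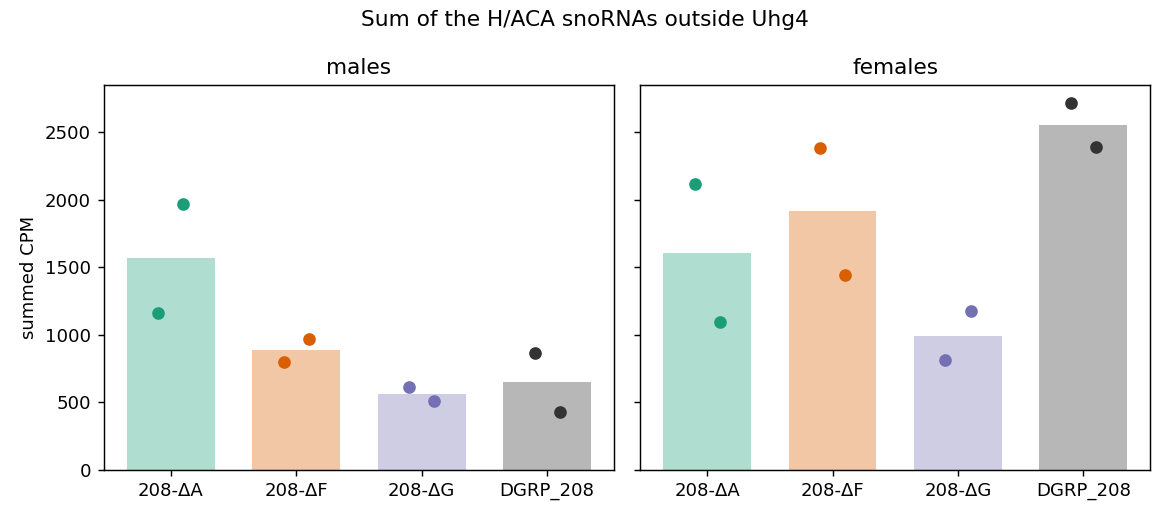
Summed level of the 107 H/ACA snoRNAs outside *Uhg4* in each library, in CPM, by line and sex, with 1 point per library and a bar up to the mean of both libraries from 0. DGRP_208 females lie at 2715 and 2391 CPM, the lower of them barely above *208-ΔF* female replicate 1 at 2383 CPM. DGRP_208 males lie at 867 and 429 CPM.

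Most host genes were lower in males and in *208-ΔG*, and none outside *Uhg4* was called for the deletion lines in either sex. Of 26 hosts outside *Uhg4*, 22 were lower in males and none higher by edgeR (19.0% of all genes were lower), with a median log2 fold change of -1.12, and all 14 ribosomal protein hosts were among them. In 7 hosts the median of the members was more negative than the host. The hosts and their guides differed most for *Nop60B*, where the host fell by 2.97 and its guide *snoRNA:Psi18S-1820* had a log2 fold change of -1.12. For *208-ΔG* against *208-ΔA*, 25 of the 26 hosts were lower by edgeR (30.1% of all genes were), with a median of -1.37, and members were more negative in 9.

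For the deletion lines in females the hosts had a median of -0.24, with none called by edgeR, and in 23 of the 26 the members' median was more negative than the host. *RpS5a*, for example, stood at -0.49 and its 14 guides at a median of -0.79, and *Arpc2* stood at -0.18 with its 14 tested guides at -0.48. In males the hosts had a median of 0.02, with none called by edgeR, and members were more negative in 3. Hosts and guides come from the same libraries, and the differences between them were not tested.

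**Figure D5:**
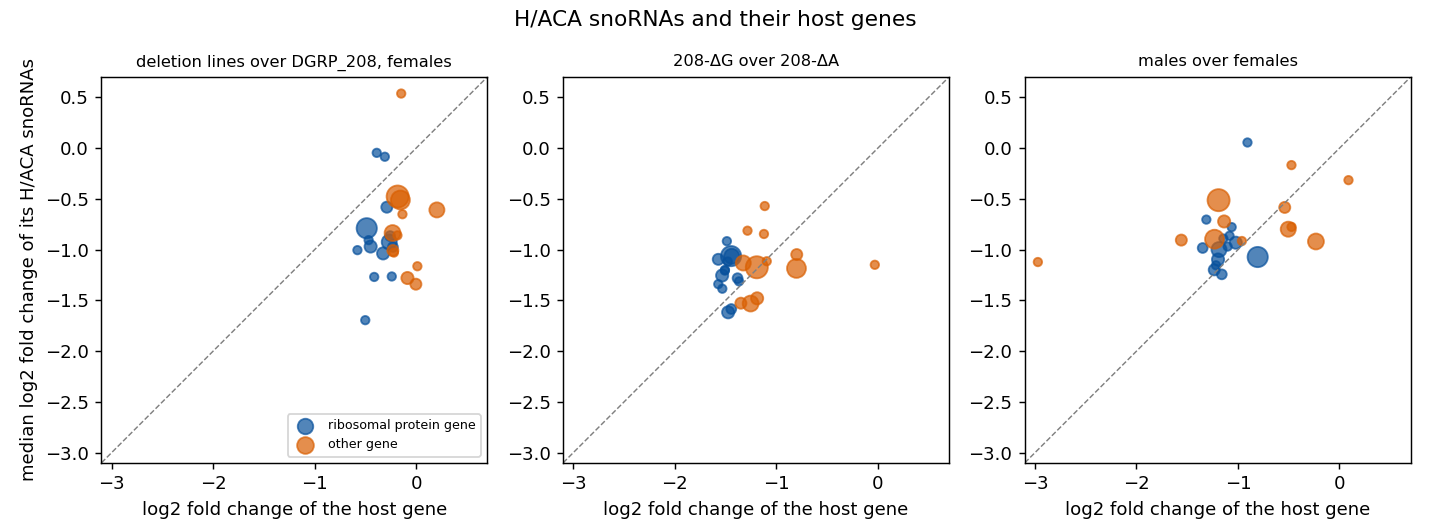
Median log2 fold change of the members in each host (vertical) against that of the host gene (horizontal) in 3 comparisons, with 1 point per host outside *Uhg4* sized by its number of members, ribosomal protein genes in blue, and equal change as a dashed line. For males against females the hosts have a median of -1.12, and for the deletion lines in females most points lie below the line, with hosts at a median of -0.24.

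Of the proteins that build or assemble the H/ACA particle, 9 were found. In males 6 of these were lower and 2 higher at an adjusted p under 0.05 by edgeR, where 39.8% of all genes were called and 19.0% were lower. *Nopp140*, a nucleolar chaperone of snoRNA particles, had a log2 fold change of -2.11 (SE 0.212), *Nop60B* one of -2.97 (SE 0.299) and *Gar1* one of -1.58 (SE 0.176). The 2 that were higher were *rept* (0.43), an ATPase of particle assembly, and *coil* (0.51), the coilin of Cajal bodies. None of the 9 was called by edgeR for the deletion lines in females, where the median was -0.03, or in males, where it was 0.38, and 0 and 1 of them had an unadjusted p under 0.05. In *208-ΔG* against *208-ΔA* 5 were lower (30.1% of all genes were), among them *pont* (-0.65), *Nop60B* (-1.28) and *Nop10* (-1.48).

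The other classes of small guide RNA and the Uhg hosts were set beside the members. Of 100 C/D snoRNAs, which guide ribose methylation, only 42 reached the median of 2 reads and were tested. Among these the median log2 fold change was -0.23 in deletion females and 0.24 in deletion males. Between the sexes 9 were lower in males (21.4%, near the 19.0% of all genes), with a median of -0.70. Over all 100 C/D snoRNAs, tested or not, the median level was 0 to 1.30 CPM per kilobase per library. The chemoreceptor level was 0.434 to 3.94. Medians of the H/ACA members outside *Uhg4* were 4.55 or more, but their distance from the chemoreceptor level differed by library. In *208-ΔG* males they were 4.65 and 4.55, against a chemoreceptor level of 3.02 and 2.96. In DGRP_208 male replicate 2 the median was 4.95, against 2.59, and in *208-ΔA* female replicate 1 it was 20.9, against 0.434. The level of the 42 tested C/D snoRNAs alone was not taken, and the part of low levels in their smaller shift was not tested. Among 13 scaRNAs, which guide modification of spliceosomal RNA in Cajal bodies, the median was -0.94 in deletion females, with 5 lower at an unadjusted p under 0.05 (38.5%, against 2.76% of all genes) and none called by edgeR, and between the sexes it was -0.23 with 1 called lower in males. Of the 7 Uhg genes 5 were lower in males by edgeR, led by *Uhg2* (-1.89), *Uhg1* (-1.99) and *Uhg8* (-1.98), and *Uhg4* was the only one called for the deletion lines in females. Differences between these classes and the H/ACA members were not tested.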

How the data were processed

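RNA of whole flies was sequenced after depletion of ribosomal RNA. The deposited values are raw counts. To make them, the authors filtered reads with AfterQC, placed them on the dm6 genome with GSNAP and summed those that aligned uniquely within each gene (featureCounts). Which releases of GSNAP and Subread were run, and the strand setting, is not given in the sources used here. Library totals are given with the results, and intervals and floors cover counting error only.

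Testing was limited to the 16212 of 17490 genes whose median over the 16 libraries reached 2 reads. It used edgeR 4.0.16 (R 4.3.3), its quasi-likelihood test and TMM scaling, with 1 mean for each of the 8 groups of line and sex and 8 residual degrees of freedom. The Benjamini-Hochberg adjustment ran over all genes tested, and called means an adjusted p under 0.05. CPM uses the TMM-scaled library sizes, and levels between genes are divided by annotated length. Symbols were matched for 17288 identifiers. Positions and hosts come from the Ensembl annotation of the same build, whose lengths equalled those in the table for all 111 rows of the name rule.

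The members, the gene lists and the rule for named genes were chosen with earlier results of these data known. Named were both members inside *Uhg4*, up to 10 called members per direction by smallest p (where none outside *Uhg4* passed, those with the smallest p), the 10 highest and 5 lowest members by level, up to 4 per array, and 3 genes per accompanying list. *snoRNA:Psi28S-1153*, *snoRNA:Psi18S-525b*, *snoRNA:Psi18S-525d*, *snoRNA:Psi18S-1275*, *snoRNA:Psi28S-1135e*, *snoRNA:Psi28S-2149*, *snoRNA:Psi28S-2648* and *snoRNA:Psi28S-3378* as examples in females, and the hosts used as examples, were named after their values were seen. Copies of near-identical sequence were not compared here. Alternatives were other scalings (size factors of DESeq2, library size only, Ge-TMM), other filters, DESeq2 1.42.0 and limma-voom of limma 3.58.1. Others were a linear model on Ge-TMM values without a log, an adjusted p under 0.1, the replicate number as a block and libraries of 1 sex alone. The rest were the chemoreceptor level as a covariate, fits without *208-ΔG*, and leaving out each library in turn. A fit without both libraries that held transcripts of the other sex, and the sexes of *208-ΔA* and *208-ΔF* without theirs, were added after the data were seen. The edgeR step was tested on simulated data.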

Additional observations from a re-analysis of the deposited data

How the results depend on the processing

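Counts below are of the 106 tested H/ACA snoRNAs called by edgeR unless another tool is named. Where no share of all genes stands beside a count, a change in the members cannot be told apart from one over all genes. With the libraries of that sex alone, 0 were called in deletion females, against 2 in the fit to all libraries, and *snoRNA:Or-aca5* had an adjusted p of 0.0916. The replicate block left 1 called for the sexes averaged (*snoRNA:Psi28S-2949* had an adjusted p of 0.0784) and, by edgeR, 63 for *208-ΔG* against *208-ΔA* and 61 for males against females. It changed no other count past 1.5 times. Replicate numbers do not pair the samples, since of 28 correlations between same-numbered libraries, from -0.87 to 0.74, 9 were over 0.1. For Line, 6 were called with library size only, 53 with DESeq2, 20 with limma-voom, 3 with a linear model on Ge-TMM values and 45 at an adjusted p under 0.1, against 1 (5.66%, 50%, 18.9%, 2.83% and 42.5%, where 29.9%, 53.4%, 30.2%, 0.105% and 50.7% of all genes were called). For *208-ΔA*, *208-ΔF* and *208-ΔG* against DGRP_208, DESeq2 called 3, 2 and 18, against 1 each (1.49%, 0.53% and 10.7% of all genes by DESeq2). The linear model called 2, 2 and 3, and 21 passed in *208-ΔG* at an adjusted p under 0.1. For *208-ΔG* against *208-ΔA* the count was 13 with library size only, 26 with the linear model and 0 with the chemoreceptor covariate, against 67. For *208-ΔG* against *208-ΔF* it was 27 with DESeq2 (28.6% of all genes by DESeq2) and 37 at an adjusted p under 0.1, against 0. The linear model, which compares differences of levels and not log2 ratios, called 3 for the deletion effect in males minus females. It called 3 for Line by Sex, against 0 each. Without the *208-ΔG* libraries 1 was called in deletion females, 1 with the sexes averaged and 39 for males against females. Without both libraries that held transcripts of the other sex, 1 was called in deletion females, 0 in deletion males and 1 with the sexes averaged. The cause of these changes was not tested.

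Leaving out each library in turn gave 1 to 2 calls in deletion females, 1 to 2 with the sexes averaged, 1 to 44 for Line, 0 to 46 for *208-ΔG* against DGRP_208, 19 to 72 for *208-ΔG* against *208-ΔA*, 0 to 22 for *208-ΔG* against *208-ΔF* (10 and 22 without DGRP_208 male replicates 1 and 2, and 12 when *208-ΔG* female replicate 2 was left out) and 37 to 68 for males against females. A library left alone in its group was assumed to vary like the other groups. Of 1589 values of single members and medians, 1512 were counted as unchanged. A single member was if it kept its side of the threshold and, where it had one, its direction. A median was if it moved by less than 0.447 on the log2 scale, whatever its sign. No called value of a single member changed sign. Medians near 0 did when 1 library was left out, with ranges of -0.06 to 1.02 for deletion males and -0.44 to 0.10 for the sexes averaged. Depth limits the members with few reads, such as the 3 that were not tested and *snoRNA:Psi28S-2949* in males.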
